A study of Mus musculus with 6 samples.

Results

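The enzymes that turn arachidonic acid into prostaglandins and leukotrienes were compared in 2 kinds of mouse bone marrow derived macrophage. The set was given as 10 genes by symbol: Ptgs1, Ptgs2, Ptges, Hpgds and Hpgd on the prostaglandin side, and Alox5, Alox5ap, Lta4h, Ltc4s and Alox15 on the lipoxygenase side. Of these, 9 had a probe set named in the platform annotation, each with exactly 1, among 19938 genes tested. Ptgs1 was not analysed here, so nothing below covers the constitutive cyclooxygenase. RNA was hybridised to Affymetrix Mouse Gene 1.0 ST arrays, 3 for M(CSF1) and 3 for M(CSF2). M(CSF1) cells were C57BL/6 bone marrow cells induced with CSF1 (M-CSF) for 7 days, and M(CSF2) cells were C57BL/6 bone marrow cells induced with CSF2 (GM-CSF) for 7 days. Both were sorted before lysis. The labels used here give neither the sorting marker nor the age or number of the mice. The labels call the arrays biological replicates without saying whether they came from separate mice, so each p-value is set against array-to-array spread that may be partly technical. No unstimulated or uncultured control was part of the comparison, so a difference is always of one culture against the other.

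Eicosanoids are short-lived lipid signals made when a phospholipase frees arachidonic acid from membrane lipids. Cyclooxygenases (Ptgs1, Ptgs2) convert it to the unstable prostaglandin H2, which terminal synthases turn into prostaglandin E2 (Ptges), prostaglandin D2 (Hpgds) or other prostanoids, and the dehydrogenase Hpgd starts their breakdown. In the other branch 5-lipoxygenase (Alox5), with its membrane partner FLAP (Alox5ap), makes leukotriene A4, which Lta4h hydrolyses to leukotriene B4, a neutrophil attractant, and Ltc4s conjugates to glutathione to give leukotriene C4, the parent of the cysteinyl leukotrienes. Macrophages are a main source of both classes during inflammation.

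M(CSF2) cells had more transcript of Ptgs2, Ptges, Alox5, Alox5ap, Lta4h and Ltc4s than M(CSF1) cells, and far less of Hpgds. Ptgs2 rose 5.66-fold and Alox5 3.81-fold, while Hpgds fell by 4.36 on the log2 scale, a 20.6-fold difference. Alox15 and Hpgd, both near the array's lower limit, did not pass the test. Thus 6 of 9 measured members (66.7%) were called higher, against 11.9% of all genes tested, and 1 of 9 (11.1%) was called lower, against 15.6% of all genes. In either direction, 7 of 9 members were called, against 27.5% of all genes. The median difference of the 9 was 0.83 on the log2 scale, beside 0.04 over all genes. The 3 arrays of 1 group lay wholly above the 3 of the other for 8 of 9 members, against 38.9% of all genes. The members were chosen with earlier results of these data known, so these shares describe the set and are not a test of it.

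**Figure D1:**
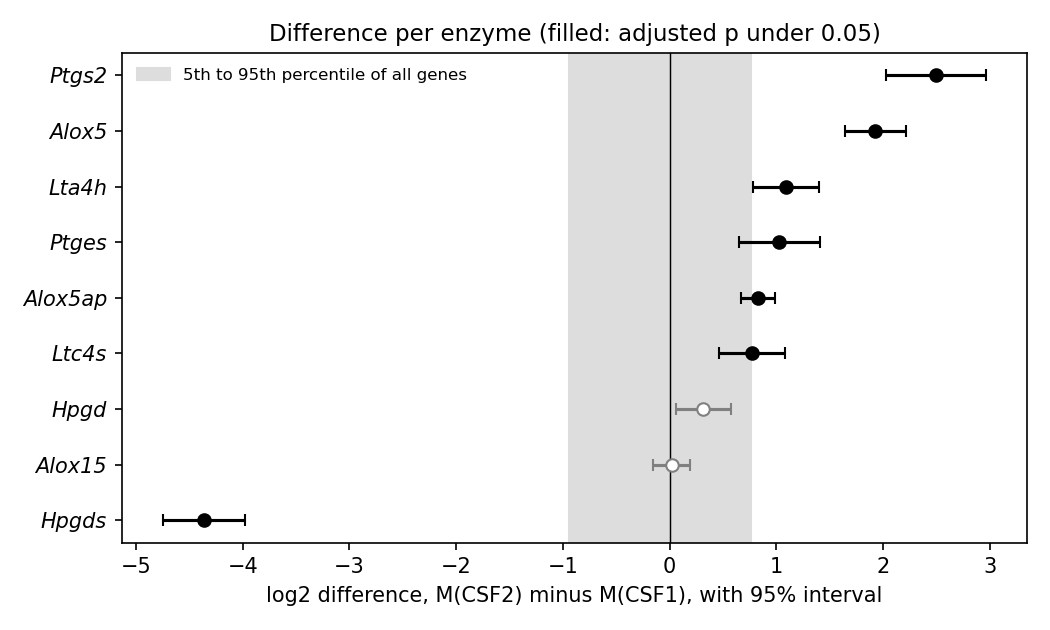
Log2 difference of each measured enzyme, M(CSF2) minus M(CSF1), on the horizontal axis with its 95% interval from limma. Filled points passed an adjusted p of 0.05, and the grey band spans the 5th to the 95th percentile of all 19938 genes (-0.94 to 0.76). All 6 called rises lie at or right of the band's upper edge and Hpgds, at -4.36, lies far to its left.

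Here "called" means an adjusted p under 0.05 from limma (Benjamini-Hochberg over all 19938 genes, 2-sided), and an adjusted p below is from that fit unless another fit is named beside it. Levels are the deposited log2 signals, and a difference is M(CSF2) minus M(CSF1) on that scale. As a reference for the lower limit, the 95th percentile of 1015 olfactory receptor genes, which macrophages are not known to use, lay at 3.36 on the log2 scale and is called the olfactory receptor level. A group mean above it was found for 7 of the 9 enzymes. All 6 arrays were at or below it for 1 of the 9 enzymes and for 5710 of the 19938 genes. Arrays of the same group correlated at 0.995 to 0.997 over all probe sets and arrays of different groups at 0.954 to 0.959, with array medians between 3.91 and 4.00. In bulk RNA, more transcript per cell and more cells of a kind that makes it cannot be told apart.

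The start regions of 4 members are shown: the inducible prostaglandin E2 pair and Alox5, which rose together, and Hpgds, which fell. RefSeq (GRCm38.p6) gave a window of 250 bases before to 50 bases after the start for 8 of the 10 genes, and those of Ptgs2, Ptges, Alox5 and Hpgds follow, 5′ to 3′ on the gene's strand. Capitals mark every match on either strand to 7 short motifs. These were the STAT motif TTCNNNGAA, the C/EBP motif TTGCNNAA, the E-box CACGTG and the PU.1 core GAGGAA. The others were the GC box GGGCGG, the TATA box TATAAA and 1 form of the NF-kB motif (GGG, any 2 bases, then TTTCC).
Ptgs2, chr1:150099781-150100080, plus strand: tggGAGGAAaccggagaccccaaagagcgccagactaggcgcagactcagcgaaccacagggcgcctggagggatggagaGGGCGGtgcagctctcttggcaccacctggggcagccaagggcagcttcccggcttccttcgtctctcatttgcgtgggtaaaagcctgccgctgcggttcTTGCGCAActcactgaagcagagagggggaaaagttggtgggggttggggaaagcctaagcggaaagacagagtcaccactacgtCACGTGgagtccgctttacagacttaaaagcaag
Ptges, chr2:30903248-30903547, minus strand: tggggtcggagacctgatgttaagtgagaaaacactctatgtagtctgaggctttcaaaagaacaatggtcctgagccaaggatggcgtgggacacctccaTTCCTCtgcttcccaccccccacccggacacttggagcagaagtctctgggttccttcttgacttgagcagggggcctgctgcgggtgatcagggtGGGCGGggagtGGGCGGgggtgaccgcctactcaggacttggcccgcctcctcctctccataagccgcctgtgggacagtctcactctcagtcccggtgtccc
Alox5, chr6:116461129-116461428, minus strand: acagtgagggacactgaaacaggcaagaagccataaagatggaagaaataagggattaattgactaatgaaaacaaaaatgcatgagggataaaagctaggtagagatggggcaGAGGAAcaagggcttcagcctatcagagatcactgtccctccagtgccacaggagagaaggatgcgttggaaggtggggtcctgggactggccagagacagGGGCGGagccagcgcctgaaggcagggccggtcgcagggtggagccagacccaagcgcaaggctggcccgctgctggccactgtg
Hpgds, chr6:65144681-65144980, minus strand: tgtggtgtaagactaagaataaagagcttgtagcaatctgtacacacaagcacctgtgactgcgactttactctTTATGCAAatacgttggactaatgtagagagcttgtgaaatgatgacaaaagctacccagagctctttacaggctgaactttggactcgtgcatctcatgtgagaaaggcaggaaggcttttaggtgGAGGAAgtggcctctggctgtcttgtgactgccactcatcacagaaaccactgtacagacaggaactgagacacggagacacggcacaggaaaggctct
The GAGGAA core was present in the windows of all 8 genes, Ptgs1 and Hpgd among them, and in 28.3% of 32851 mouse start windows. It therefore stood in genes that rose, in Hpgds, which fell, and in Hpgd, which was not called. The Ptgs2 window held the C/EBP letters at 69 bases before the start, where they read the same on both strands, and the E-box 17 bases after it. These motifs occur in 10.8% and 7.15% of all windows. Ptges held 2 GC boxes, at 53 and 42 bases before the start, and Alox5 held 1 at 35 bases before it (35.7% of all windows hold one). Hpgds held a C/EBP match at 176 bases before the start and its GAGGAA core at 49 bases before it. Neither the STAT motif (8.3% of all windows) nor this form of the NF-kB motif (1.63%) was in any of the 8 windows. Other forms of the NF-kB motif were not searched. A match says only that the letters are present.

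Ptgs2, the inducible cyclooxygenase, had the largest rise of the set. Its signal was 7.88, 8.51 and 8.43 on the M(CSF1) arrays and 10.69, 10.53 and 11.10 on the M(CSF2) arrays. The lowest M(CSF2) array was above the highest M(CSF1) array by more than the whole range of either group. The group means were 8.28 ± 0.34 and 10.78 ± 0.30 (SD, n = 3 arrays each), a difference of 2.50 (SE 0.20, adjusted p = 6.3e-05) and a fold of 5.66 with a 95% interval of 4.09 to 7.83. Among all genes tested this was the 195th largest rise.

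Ptges, the inducible membrane enzyme that completes prostaglandin E2 synthesis downstream of Ptgs2, rose with it by a smaller step. The M(CSF1) arrays gave 8.41, 8.78 and 8.65, and the M(CSF2) arrays 9.33, 9.93 and 9.68. The groups did not overlap, with the narrowest gap between M(CSF1) replicate 2 and M(CSF2) replicate 1. Means of 8.62 ± 0.19 and 9.64 ± 0.30 (SD, n = 3 arrays each) differed by 1.03 (SE 0.16, adjusted p = 0.0021), a 2.04-fold rise with a 95% interval of 1.57 to 2.65.

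Hpgds, the haematopoietic synthase of prostaglandin D2, went the other way. Its signal was 8.45, 8.11 and 8.02 in M(CSF1) and 3.78, 4.13 and 3.57 in M(CSF2). All 3 M(CSF2) arrays lay near, though still above, the olfactory receptor level. The means were 8.19 ± 0.23 and 3.83 ± 0.28 (SD, n = 3 arrays each), so that Hpgds fell by 4.36 (SE 0.17, adjusted p = 1.8e-06). The fold was 20.6 with a 95% interval of 15.8 to 26.9, and it was the 23rd largest fall among 19938 genes. With the M(CSF2) arrays so near that level, the fold and the rank depend on background signal and are not firm.

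Hpgd, the dehydrogenase that begins prostaglandin breakdown, was at or below the olfactory receptor level on all 6 arrays. Its values were 2.76, 2.65 and 2.87 in M(CSF1) and 2.98, 3.30 and 2.96 in M(CSF2). The groups stood apart by a narrow margin, the difference was 0.32 (95% interval 0.06 to 0.58), and it did not pass the adjusted threshold (adjusted p = 0.076). No fold is given for it.

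On the lipoxygenase side the 4 genes of the leukotriene route were all called higher in M(CSF2). Alox5, the enzyme that commits arachidonic acid to leukotrienes, read 4.53, 4.41 and 4.64 in M(CSF1) and 6.31, 6.71 and 6.36 in M(CSF2). The groups were far apart, with the M(CSF1) arrays the more tightly placed. Means of 4.53 ± 0.11 and 6.46 ± 0.22 (SD, n = 3 arrays each) differed by 1.93 (SE 0.12, adjusted p = 1.8e-05), a 3.81-fold rise (95% interval 3.13 to 4.63).

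Alox5ap, which encodes FLAP, the protein that presents arachidonic acid to 5-lipoxygenase, had the tightest replicates of the called members. It read 8.69, 8.61 and 8.73 in M(CSF1) and 9.52, 9.45 and 9.55 in M(CSF2). The difference was smaller than for Alox5 but many times the spread within either group. Means of 8.68 ± 0.06 and 9.51 ± 0.05 (SD, n = 3 arrays each) gave 0.83 (SE 0.07, adjusted p = 7.3e-05), or 1.78-fold with a 95% interval of 1.59 to 1.99.

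Lta4h, the hydrolase that yields leukotriene B4, read 5.97, 5.77 and 5.48 in M(CSF1) and 6.86, 6.68 and 6.94 in M(CSF2). The groups did not overlap. Means of 5.74 ± 0.25 and 6.83 ± 0.14 (SD, n = 3 arrays each) differed by 1.09 (SE 0.13, adjusted p = 0.00058), a 2.13-fold rise (95% interval 1.71 to 2.64).

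Ltc4s, the synthase of leukotriene C4, was dim in both cultures, at 3.78, 3.99 and 4.10 in M(CSF1) and 4.90, 4.81 and 4.47 in M(CSF2). Every array was above the olfactory receptor level, and the lowest M(CSF2) array, replicate 3, was above the highest M(CSF1) array. Means of 3.96 ± 0.17 and 4.73 ± 0.23 (SD, n = 3 arrays each) differed by 0.77 (SE 0.13, adjusted p = 0.0034), a 1.71-fold rise (95% interval 1.38 to 2.12). This was the smallest of the called differences in the set.

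Alox15, the 12/15-lipoxygenase known from resident peritoneal macrophages and from cells exposed to interleukin-4, read 3.28, 3.27 and 3.44 in M(CSF1) and 3.39, 3.33 and 3.34 in M(CSF2). In each group 2 of 3 arrays were at or below the olfactory receptor level, and the groups overlapped. The difference was 0.02 with a 95% interval of -0.15 to 0.19 (adjusted p = 0.88).

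**Figure D2:**
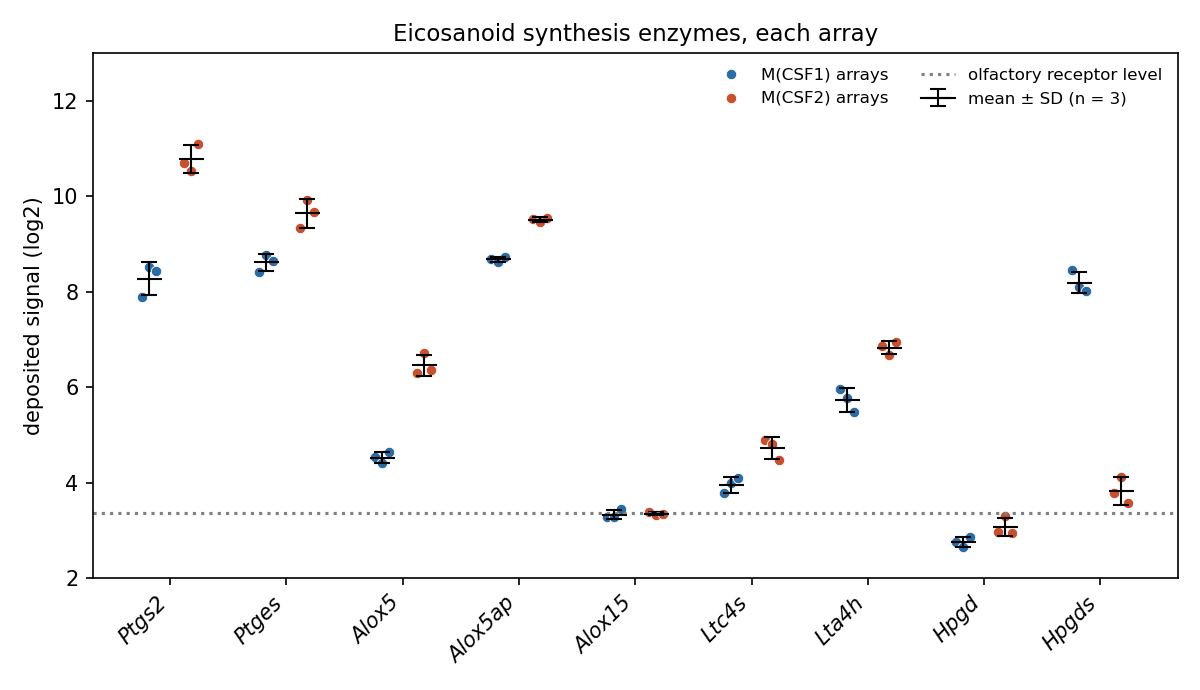
Deposited log2 signal (vertical axis) of the 9 measured enzymes on each of the 6 arrays, blue for M(CSF1) and orange for M(CSF2), with black bars for the mean ± SD of 3 arrays and a dotted line at the olfactory receptor level (3.36). The orange points stand above the blue for Ptgs2, Ptges, Alox5, Alox5ap, Lta4h and Ltc4s, and Hpgds drops from 8.19 to 3.83, close to the dotted line where Alox15 and Hpgd lie. Signals of different genes come from different probes and are not to be compared with each other.

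The rest of the eicosanoid pathway was read from 8 lists with 91 measured genes, of which 23 were called higher (25.3%, against 11.9% of all genes) and 18 lower (19.8%, against 15.6% of all genes). Called genes were named by size of difference, and any gene picked with its value already in view is marked so. In the supply of arachidonic acid, 2 of 21 measured genes were called higher and 5 lower (median 0.06), or 33.3% called, near the 27.5% of all genes. Mgll, the lipase that frees arachidonic acid from the endocannabinoid 2-AG, rose by 1.34 (adjusted p = 0.0068), from 5.38, 4.28 and 4.51 to 6.18, 6.17 and 5.84. Daglb (-0.91, adjusted p = 0.00033), a lipase that makes 2-AG, Abhd12 (-0.85, adjusted p = 0.00028), a serine hydrolase that acts on lysophospholipids, and the lysosomal phospholipase Pla2g15 (-0.75, adjusted p = 0.00025) fell. The secreted phospholipase Pla2g12a gave 0.40 (adjusted p = 0.043), but the call ended in 4 of 6 leave-one-out fits. It was 0.32 (adjusted p = 0.156) and 0.41 (adjusted p = 0.126) on dropping M(CSF1) replicates 1 and 2, and 0.30 (adjusted p = 0.132) and 0.40 (adjusted p = 0.112) on dropping M(CSF2) replicates 2 and 3. Pla2g4a, the cytosolic phospholipase that mainly feeds both routes and was picked with its value in view, was 7.10 ± 0.14 and 7.31 ± 0.16 (SD, n = 3 arrays each), a difference of 0.21 (95% interval -0.04 to 0.46, adjusted p = 0.21).

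Of 10 measured acyl-CoA synthetases and lysophospholipid acyltransferases, 2 were called higher and 4 lower (median -0.12). That is 60.0% called, against 27.5% of all genes. Such enzymes return fatty acids to membrane lipids, and not all of them prefer arachidonic acid. The lysophospholipid acyltransferase Lpcat1 fell from 8.31 to 6.58, by 1.72 (adjusted p = 1.9e-05), and the acyl-CoA synthetase Acsl5 fell by 1.36 (adjusted p = 6.8e-06). Acsl4, the synthetase that prefers arachidonic acid, picked with its value in view, gave -0.03 (95% interval -0.26 to 0.20, adjusted p = 0.87). Lpcat3, an acyltransferase also picked with its value in view, fell by 0.38 (adjusted p = 0.0096), from 8.45 to 8.07. Mboat2 rose by 0.60 (adjusted p = 0.00091) from the olfactory receptor level and was at least 1.10-fold higher. Mboat7, which puts arachidonic acid into phosphatidylinositol, gave 0.45 (adjusted p = 0.020) and stayed called in 1 of 6 leave-one-out fits. Without M(CSF1) replicates 1, 2 and 3 in turn it was 0.48 (adjusted p = 0.0515), 0.48 (adjusted p = 0.0576) and 0.38 (adjusted p = 0.0658), and without M(CSF2) replicates 1 and 3 it was 0.41 (adjusted p = 0.0869) and 0.38 (adjusted p = 0.0712). Mboat1 gave -0.72 (adjusted p = 0.038) and also kept its call in 1 of 6. It was -0.50 (adjusted p = 0.0947) and -0.71 (adjusted p = 0.135) without M(CSF1) replicates 1 and 2, and -0.65 (adjusted p = 0.153), -0.72 (adjusted p = 0.122) and -0.79 (adjusted p = 0.0732) without M(CSF2) replicates 1, 2 and 3.

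Among 9 other measured prostanoid synthases, 2 were called higher and 3 lower (55.6% called, against 27.5% of all genes, median 0.12). The aldo-keto reductase Akr1c18, which inactivates progesterone and can also reduce prostaglandins, read 5.26, 5.58 and 5.54 in M(CSF1) and 8.42, 9.04 and 8.91 in M(CSF2). The groups were far apart, and the rise of 3.33 (SE 0.17, adjusted p = 6.3e-06) was 10.1-fold (95% interval 7.65 to 13.2). Prxl2b, listed as Fam213b and known to make prostaglandin F2 alpha and its ethanolamide, read 6.75, 6.79 and 6.22 in M(CSF1) and 4.98, 4.45 and 4.36 in M(CSF2). It fell by 1.99 (SE 0.20, adjusted p = 0.00023). Ptges3, a heat shock protein cochaperone that also has prostaglandin E synthase activity, fell by 0.94 (adjusted p = 0.00023), and its other probe sets gave -0.81 and -0.97. The carbonyl reductase Cbr3 rose by 0.76 (adjusted p = 0.00099). Its relative Cbr1 gave -0.37 (adjusted p = 0.015), and the call ended in 4 of 6 leave-one-out fits. It was -0.35 (adjusted p = 0.0604) and -0.32 (adjusted p = 0.0621) on dropping M(CSF1) replicates 1 and 2, and -0.36 (adjusted p = 0.0591) and -0.37 (adjusted p = 0.0513) on dropping M(CSF2) replicates 1 and 2. The thromboxane synthase Tbxas1 and the lipocalin-type prostaglandin D synthase Ptgds, both picked with their values in view, gave 0.12 (adjusted p = 0.53) and 0.11 (adjusted p = 0.37).

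Of 6 genes that carry prostanoids across membranes or inactivate them, 2 were called higher and 1 lower (median 0.13). That is 50% called, against 27.5% of all genes. The reductase Ptgr1, which inactivates leukotriene B4 and the oxidised products of Hpgd, rose from 6.64 ± 0.14 to 8.82 ± 0.15 (SD, n = 3 arrays each), by 2.18 (adjusted p = 5.6e-06) or 4.53-fold. Zadh2, another prostaglandin reductase, rose by 1.34 (adjusted p = 0.0012). The lower call was the prostanoid exporter Abcc4 (-0.66, adjusted p = 0.032), named with its value in view, whose groups met at 1 shared value (6.70). It was -0.58 and -0.58 (adjusted p = 0.139 each) without M(CSF1) replicates 1 and 2, and -0.61 and -0.54 (adjusted p = 0.132 and 0.126) without M(CSF2) replicates 1 and 2.

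Further genes of lipoxygenase and leukotriene metabolism had 7 of 17 called higher (41.2%, against 11.9% of all genes) and 1 lower (5.88%, against 15.6%), with a median of 0.25. The higher calls were Mgst1, Mgst2, Mgst3, Dpep2, Gpx1, Gpx4 and Abcc1. The strongest was Mgst2, a microsomal glutathione transferase that can make leukotriene C4 as Ltc4s does. It read 3.58, 3.60 and 3.68 in M(CSF1) and 7.47, 7.32 and 7.52 in M(CSF2), with tight replicates in both groups. The rise of 3.82 (SE 0.08, adjusted p = 1.8e-07) was 14.1-fold with a 95% interval of 12.5 to 16.1. Its M(CSF1) arrays lay near, though above, the olfactory receptor level, so the fold and its interval depend on background signal. Ltc4s, dim in both groups, had risen 1.71-fold, and these folds do not rank the 2 enzymes. Dpep2, a dipeptidase that converts leukotriene D4 to E4, read 6.72, 7.05 and 6.91 in M(CSF1) and 9.82, 9.52 and 9.71 in M(CSF2), a rise of 2.79 (adjusted p = 2.3e-06). A dimmer probe set of Dpep2 gave 0.87 (adjusted p = 0.011 over all probe sets). Mgst1, a transferase of the same family that protects membranes from lipid peroxides, rose by 2.53 (adjusted p = 7.0e-06). Cotl1, an actin-binding protein that also binds 5-lipoxygenase, fell by 0.44 (adjusted p = 0.0079). No lipoxygenase of this list was called. Named with their values in view, Alox12, Alox8, Alox12e, Aloxe3 and Alox12b had adjusted p from 0.063 to 0.60. Abcc1, likewise named, gave 0.35 (adjusted p = 0.044). Its adjusted p was 0.081, 0.105 and 0.121 without M(CSF1) replicates 1, 2 and 3. Without M(CSF2) replicates 1 and 3 it was 0.101 and 0.111.

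In the cytochrome P450 and epoxide branch 3 of 11 measured genes were called higher and 1 lower (median 0.17). That is 36.4% called, against 27.5% of all genes, and 7 of 11 were at or below the olfactory receptor level on all 6 arrays. The cytochrome P450 Cyp1b1 rose by 3.41 (adjusted p = 5.7e-06), from 3.08, 3.15 and 3.48 to 6.33, 6.66 and 6.94, with 2 of 3 M(CSF1) arrays under that level. Cyp2j6, an epoxygenase-family gene, rose by 1.60 (adjusted p = 0.00028) and was at least 2.77-fold higher. The microsomal epoxide hydrolase Ephx1 rose by 1.59 (adjusted p = 3.1e-05) and Cyp2s1 fell by 1.20 (adjusted p = 0.00027).

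**Figure D3:**
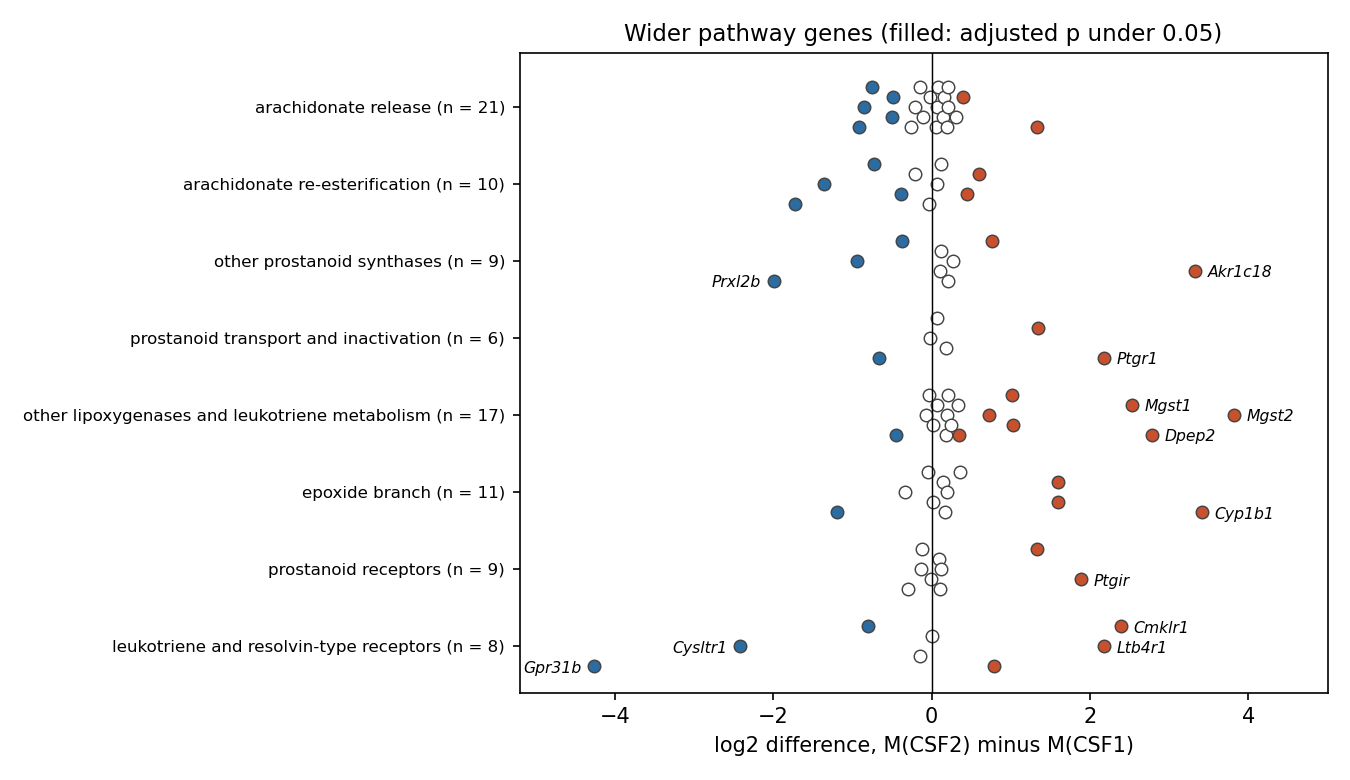
Log2 difference, M(CSF2) minus M(CSF1) (horizontal axis), of the 91 measured genes in the 8 wider pathway lists, 1 row per list with its number of genes; the height within a row has no meaning. Orange points were called higher in M(CSF2), blue points lower, and open points were not called. Mgst2 (3.82), Cyp1b1 (3.41) and Akr1c18 (3.33) are among the points on the far right, and Gpr31b (-4.27) is on the far left. Cyp1b1 starts from an M(CSF1) mean under the olfactory receptor level and has no firm rank. Mgst2 starts from a mean near that level, so the size of its difference is uncertain too.

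Receptors for these lipids were read next. Of 9 prostanoid receptors 2 were called higher and 0 lower (median 0.09), so that 22.2% were called by limma, below the 27.5% of all genes. Ptgir, the prostacyclin receptor, read 5.08, 5.15 and 5.55 in M(CSF1) and 7.24, 7.02 and 7.19 in M(CSF2), a rise of 1.89 (SE 0.13, adjusted p = 3.1e-05) or 3.71-fold. Ptger2, the EP2 receptor for prostaglandin E2, read 4.27, 3.95 and 3.88 against 5.37, 5.31 and 5.41, a rise of 1.33 (SE 0.11, adjusted p = 6.7e-05) or 2.51-fold. The EP4 receptor Ptger4, picked with its value in view, gave -0.30 (95% interval -0.56 to -0.04, adjusted p = 0.087). Ptgdr2, a receptor for prostaglandin D2, the product of Hpgds, was also picked with its value in view and lay at or below the olfactory receptor level on all 6 arrays.

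Of 8 measured receptors for leukotrienes and related lipids 3 were called higher and 3 lower (75.0% called, against 27.5% of all genes, median -0.07). Ltb4r1, the high-affinity receptor for leukotriene B4, read 4.06, 4.03 and 4.27 in M(CSF1) and 6.24, 6.24 and 6.43 in M(CSF2), a rise of 2.18 (SE 0.09, adjusted p = 3.0e-06) or 4.54-fold. Cysltr1, the main receptor for leukotriene D4, read 7.05, 7.08 and 6.95 in M(CSF1) and 4.93, 4.16 and 4.73 in M(CSF2), and fell by 2.42 (SE 0.18, adjusted p = 4.4e-05), a 5.36-fold difference. Cysltr2 gave 0.79 (adjusted p = 0.0081) from below the olfactory receptor level and was at least 1.01-fold higher, and its call ended without M(CSF1) replicate 1 (0.74, adjusted p = 0.0502) and without M(CSF1) replicate 2 (0.74, adjusted p = 0.0509).

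Gpr31b, the mouse counterpart of a receptor known in human for the lipoxygenase product 12-HETE, read 10.16, 9.98 and 9.66 in M(CSF1) and 5.45, 5.82 and 5.74 in M(CSF2). It fell by 4.27 (SE 0.15, adjusted p = 1.3e-06), a 19.2-fold difference (95% interval 15.1 to 24.5), and its other probe set gave -4.26. Cmklr1, the chemerin receptor, also described as a resolvin E1 receptor, rose by 2.39 (adjusted p = 1.3e-06), and Gpr18, described as a receptor for resolvin D2, fell by 0.81 (adjusted p = 0.0019).

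**Figure D4:**
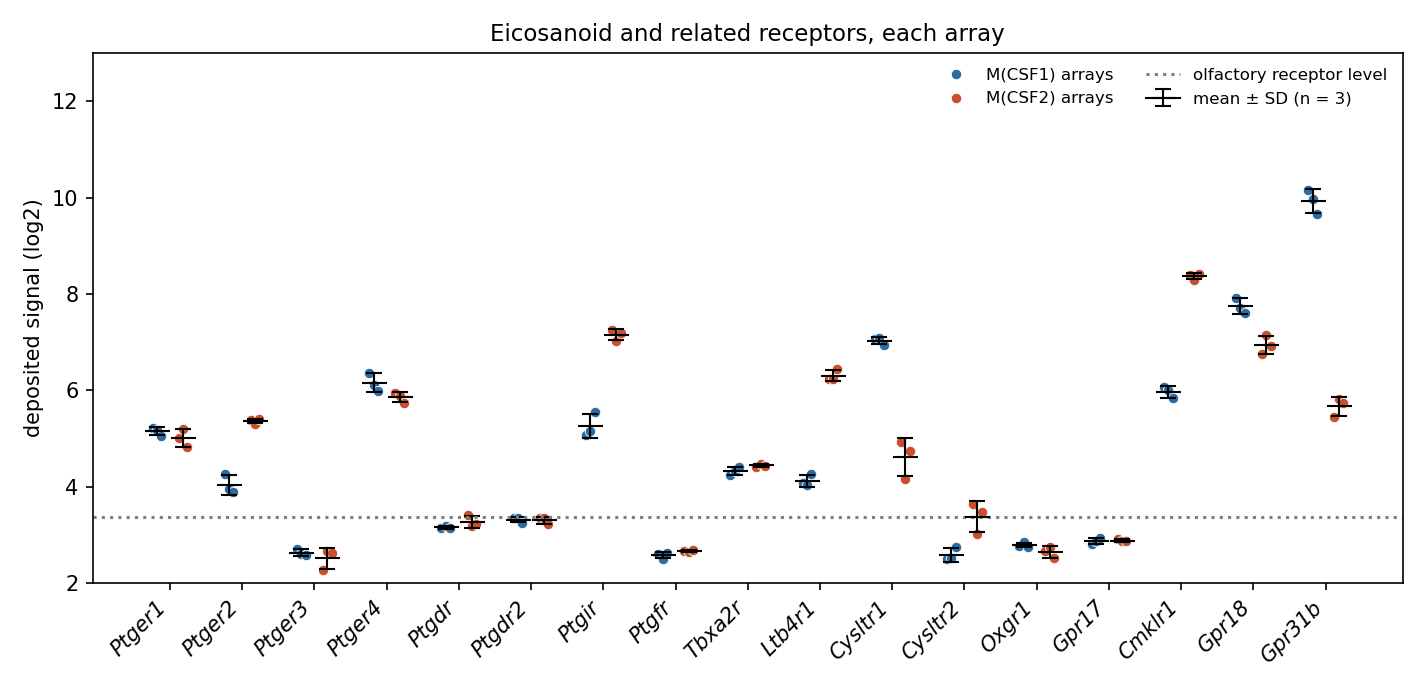
Deposited log2 signal (vertical axis) of 17 measured receptors for prostanoids, leukotrienes and related lipids on each array, blue for M(CSF1) and orange for M(CSF2), with mean ± SD of 3 arrays and the olfactory receptor level as a dotted line. Ptger2, Ptgir, Ltb4r1 and Cmklr1 sit higher in M(CSF2), and Cysltr1, Gpr18 and Gpr31b sit lower.

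Several of these enzymes are also made by other marrow cells, so 7 marker lists were read beside them. Over all genes tested, 11.9% were called higher, 15.6% lower and 27.5% either way. The share called either way was 60.0% for macrophage, 66.7% for platelet, 38.5% for neutrophil and 14.3% for eosinophil markers. It was 30.8% for mast cell and basophil, 33.3% for stromal and 33.3% for dendritic cell markers, near the share of all genes. Of 10 macrophage markers 3 were called higher and 3 lower. Lyz2 was 12.43 and 11.95, Adgre1 11.88 and 10.70, and Cd14 10.16 and 11.87 in M(CSF1) and M(CSF2). Named with their values in view, Mertk was 6.08 and 5.69 and Mrc1 5.68 and 4.95, neither called (adjusted p = 0.067 and 0.075). Cd163 lay at or below the olfactory receptor level on all 6 arrays. Also with values in view, Csf1r (0.60) and Cd68 (0.89) were called higher and Fcgr1 (-1.23) lower, and Itgam (-0.19) was not called. The summed linear signal of the 10 macrophage markers was 15575 to 16076 on the M(CSF1) arrays and 15130 to 16109 on the M(CSF2) arrays. Bright genes weigh most in such a sum. Here Lyz2 and Adgre1 fell while Cd14 and Cd68 rose, so near-equal sums do not measure macrophage content. Mast cells and basophils, known for Hpgds, Ltc4s and Alox5, had 4 of 13 markers called higher, and their sum went from 122 to 145 up to 544 to 627. Hdc rose by 4.43, Gata2 by 2.52 and Kit by 1.32, while the defining Cpa3, Fcer1a and Ms4a2 lay at or below the olfactory receptor level on all 6 arrays, among 8 of 13 that did.

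Eosinophil markers, for cells that make Ltc4s and, in mouse, Alox15, had 0 of 7 measured members called higher and 1 called lower in the limma fit, and their sum was 103 to 135 in M(CSF1) and 76.8 to 94.9 in M(CSF2). Ccr3 fell by 2.64 (at least 4.44-fold lower), Siglecf gave 0.19 (adjusted p = 0.38) and Prg3 0.13 (adjusted p = 0.54). Neutrophil markers, for cells rich in Alox5 and Lta4h, had 4 of 13 called higher and 1 lower, and their sum went from 2674 to 3353 up to 7730 to 8600, mostly Lcn2 (11.17 and 12.43) and Mmp8 (6.60 and 11.04). Csf3r fell by 1.57. Named with their values in view, S100a8 rose by 2.37 (adjusted p = 0.00013), from 6.09 to 8.46, and S100a9 gave -0.34 (adjusted p = 0.072). At or below the olfactory receptor level on all 6 arrays were 5 of the 13, with Ly6g and Cxcr2, also named with values in view, among them. Platelet and megakaryocyte markers had 3 of 6 measured called higher and 1 lower. Their sum went from 328 to 375 up to 2571 to 2654, mostly Pf4 (7.45 and 11.08) and Ppbp (5.72 and 8.13), with Itgb3 at 0.38 (adjusted p = 0.16). Gp9, picked with its value in view, fell by 0.50. Stromal markers had 2 of 9 called higher and 1 lower (sums 259 to 325 and 320 to 391), with Dcn 3.30 and Col5a1 0.54 higher while Postn fell by 2.91. Dendritic cell markers had 3 of 9 called higher and 0 lower (sums 179 to 201 and 2215 to 2722). The M(CSF2) sum was mostly Itgax (10.84) and Ccr7 (9.10), which rose by 5.05 and 3.93, with Batf3 at -0.20 (adjusted p = 0.17). Zbtb46 (0.26, adjusted p = 0.064), Flt3 (-0.08, adjusted p = 0.52), Xcr1 and Cd209a, named with their values in view, were not called. Single calls in these tallies did not hold in every fit, and the genes concerned are named here with their values in view. Treml1, a platelet gene (0.37, adjusted p = 0.043), was 0.29 and 0.37 (adjusted p = 0.142 and 0.0998) without M(CSF1) replicates 1 and 3, and 0.32 and 0.34 (adjusted p = 0.143 and 0.129) without M(CSF2) replicates 2 and 3. Mcpt8, a basophil protease at or below the olfactory receptor level on all 6 arrays (0.36, adjusted p = 0.047), was 0.33, 0.43 and 0.32 (adjusted p = 0.157, 0.0595 and 0.130) without M(CSF1) replicates 1, 2 and 3, and 0.25 and 0.40 (adjusted p = 0.116 and 0.0829) without M(CSF2) replicates 1 and 2. Clec9a, a dendritic cell lectin also at or below that level on all 6 arrays (0.27, adjusted p = 0.021), was 0.26 and 0.25 (adjusted p = 0.0770 and 0.0504) without M(CSF1) replicates 2 and 3, and 0.26 (adjusted p = 0.0642) without M(CSF2) replicate 3. The part of such cells in the differences of the eicosanoid enzymes was not tested.

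The 7 called members kept their direction and their call in each of the 16 alternative fits, including the 6 that left out 1 array. The number of arrays limits the precision, and the transcript levels say nothing of enzyme activity or of the lipids made.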

How the data were processed

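The arrays, Affymetrix Mouse Gene 1.0 ST, covered 3 M(CSF1) and 3 M(CSF2) samples. The authors deposited 1 table of 28941 probe sets with 1 column of log2 values per sample. Base 2 was inferred from the range of 1.48 to 13.27, since no source used here states the scale. The submitters' processing notes name MAS5, while background correction, normalization and genome build are not given in the sources used here. Detection calls are absent from the deposited table.

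Names came from the platform annotation, in which 21789 probe sets had 1 gene, 1621 several and 5531 none. Only the first kind was used, and the brightest over the 6 arrays stood for a gene with several, giving 19938 genes without a filter. The fit was limma (version 3.58.1, R version 4.3.3; lmFit and eBayes, no block), with Benjamini-Hochberg adjustment of p-values across the 19938 genes. The procedure was also run on simulated arrays in which far fewer genes changed than were called here, so that run does not check these calls. Where all 3 arrays of 1 group lay at or below the olfactory receptor level, the fold is a bound ("at least"), taken between the other group's mean and that level. List symbols on no probe set were updated through RefSeq synonyms.

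The 10 members, the 15 other lists (8 pathway, 7 cell type) and the olfactory receptor level were chosen with earlier results of these data known. Named were all members, up to 3 called genes in each direction per pathway list with non-overlapping groups, and the 3 brightest genes per marker list.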

Additional observations from a re-analysis of the deposited data

How the results depend on the processing

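The fits were repeated with other normalization (quantile, or medians centred), without genes below the median signal, with probe sets averaged or each alone, with other variance models (trend, robust, or ordinary least squares), with a replicate block, and with each array dropped, plus a filter at the olfactory receptor level added after the data were examined. Ptgs2, Ptges, Alox5, Alox5ap, Lta4h, Ltc4s and Hpgds were called in the same direction in all 16. Their highest adjusted p over these was 0.0477, for Ltc4s. Hpgd was tested in 14 and called in 0 (0.21 to 0.38, adjusted p from 0.063 to 0.243). Alox15 changed sign without being called: it was -0.030 after quantile normalization, -0.024 after centring on medians, and -0.0096 to 0.075 with an array left out. The filters on dim genes left no value for Hpgd or Alox15. The count of called genes over the array was 5488, and 3769 by ordinary least squares. With each probe set alone, 7139 of 28941 probe sets were called, which is 24.7% against 27.5% of genes. With the replicate block it was 5072, and the same 7 members were called. The labels give no shared source for a replicate number, and same-numbered arrays did not deviate together (correlations of 0.0039, -0.044 and -0.25). With 3 arrays per group, these correlations cannot tell whether same-numbered arrays shared a source. Of 67 called list genes outside the members, 12 lost the call under at least 1 alternative: 9 of 41 in the pathway lists and 3 of 26 markers. By gene these were Mgll, only under ordinary least squares (adjusted p = 0.083), and Pla2g12a, Mboat1, Mboat7, Cbr1, Cysltr2, Abcc1, Abcc4, Dagla, Treml1, Mcpt8 and Clec9a. After centring on medians the adjusted p was 0.0587 for Treml1, 0.0817 for Mcpt8, 0.0815 for Clec9a and 0.0989 for Abcc1. The cause was not tested. Dim genes, Ltc4s, Alox15 and Hpgd among them, are limited by signal close to background.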

Other observations

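Ptges, Alox5ap and Ltc4s belong to 1 family of small membrane proteins, MAPEG, with the glutathione transferases Mgst1, Mgst2 and Mgst3. Grouped so after the values were seen, 6 of 6 measured family genes were called higher in M(CSF2) by limma (11.9% of all genes were), the groups were apart for each (38.9% of all genes), and each kept its call in all 16 alternatives. The differences were 3.82 for Mgst2, 2.53 for Mgst1, 1.03 for Ptges, 0.83 for Alox5ap, 0.77 for Ltc4s and 0.72 for Mgst3, with a median of 0.93. Mgst3, an enzyme of lipid peroxide reduction, read 5.31, 5.25 and 5.48 in M(CSF1) and 6.03, 6.14 and 6.05 in M(CSF2) (adjusted p = 0.00044). Because the group was formed from the values, it has no test of its own.

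The lipid peroxide reductases Gpx1 and Gpx4, whose activity lowers the peroxide tone that lipoxygenases and cyclooxygenases need, were both higher in M(CSF2). They were chosen after their values were seen. Gpx1 rose by 1.03 (limma adjusted p = 0.00032) from 10.33, 10.07 and 9.91 to 11.06, 11.22 and 11.13. Gpx4 rose by 1.02 (limma adjusted p = 9.1e-05) from 8.21, 8.26 and 8.20 to 9.07, 9.34 and 9.32, and its other probe set gave 1.00.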
